A study of Sus scrofa with 28 samples.

Results

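Molecular chaperones and protein folding genes were examined in the loin muscle (longissimus dorsi) of purebred Iberian (IB) and crossbred Duroc × Iberian (DU×IB) piglets. The genes were chosen by symbol: heat shock proteins and heat shock factors, J-domain (DNAJ) and BAG co-chaperones, and chaperones, translocon subunits and stress factors of the endoplasmic reticulum (ER). SERPINH1, FKBP10, FKBP14 and ERO1L were left out by the same rule. It held 54 of the 5226 probe sets in the table, or 41 of 2275 genes with a name. The 28 piglets were males slaughtered at weaning, at 28 days of age, 14 of each genetic type, and each gave 1 array. Both genetic types had Iberian dams and were suckled until slaughter, and they differed in the sire, Iberian for IB and Duroc for DU×IB. Some IB piglets and most DU×IB piglets had littermates in their group, because the crossbred litters were far fewer than the purebred ones. The labels do not name the litter, so every piglet was treated as independent. The SDs, SEs and p-values below thus make no allowance for litter. A total RNA extract of whole muscle was hybridized, so that fewer cells of a type and less RNA per cell cannot be told apart.

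Chaperones bind unfolded protein and help it to reach or regain its shape. Cytosolic HSP70 proteins work in cycles of ATP hydrolysis that J-domain proteins start and that nucleotide exchange factors, such as BAG proteins and HSP110, complete, while HSP90 acts later on a narrower set of clients. Small heat shock proteins hold denatured protein without using ATP and are abundant in muscle, where they bind filaments. Heat and other stress release the factor HSF1, which switches on genes of HSP70, HSP110, HSP90 and their J-domain partners. The ER has its own set (HSPA5, HSP90B1, HYOU1), which the unfolded protein response raises when misfolded protein collects there.

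The arrays had been hybridized in series of 16 and 12. The series was recovered from the level of 10 spike-in probe sets, bacterial transcripts added in known amount, whose mean per array lay between 8.93 and 9.68 (log2) in the series of 16 and between 6.19 and 7.01 in the series of 12. Each series held the same number of IB and DU×IB piglets, 8 and 6. Array medians ran from 6.01 to 6.71 in the series of 16 and from 6.87 to 7.05 in the series of 12. Of 16 skeletal muscle markers, PYGM (muscle glycogen phosphorylase) alone was found by name in the table. The table keeps only probe sets that varied between arrays, and 2535 of them have no name. Why the other markers were missing was not tested. Of the other cell types' markers, 3 of the 4 fibroblast and matrix probe sets passed the test, all higher in DU×IB, and their summed log2 level spanned 8.68 to 12.0 across IB piglets (median 11.0) and 11.0 to 12.9 across DU×IB piglets (median 11.8). None of 10 macrophage, 8 endothelial, 2 adipocyte and 2 blood cell probe sets passed it, beside 2.77% of all probe sets. All 10 macrophage means were lower in DU×IB, with a median log2 difference of -0.42. For 3 of the 10 the unadjusted p of the same test was under 0.05, as for 13.8% of all probe sets. Endothelial means were higher in DU×IB for 5 probe sets and lower for 3. The summed macrophage level spanned 9.60 to 12.6 across IB piglets (median 10.1) and 9.48 to 10.2 across DU×IB piglets (median 10.0). The part of these cells in the values that follow was not tested.

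No chaperone or folding probe set passed the test between genetic types, at an adjusted p under 0.10 (the threshold used throughout). The test was limma with the hybridization series as a block and Benjamini-Hochberg adjustment over the whole table. Of all 5226 probe sets it called 145, or 2.77%, 108 higher (2.07%) and 37 lower (0.708%) in DU×IB. At an unadjusted p under 0.05 it gave 4 of the 54, or 7.41%, beside 13.8% of all probe sets. Without the block 52 probe sets were called (0.995%), again with 0 of the 54. Crossbred means were higher for 24 of the 54 and lower for 30, with a median log2 difference of -0.03 beside 0.02 over the whole table. The difference was under 0.25 in size for 46 of them, and for 49 the whole 95% interval lay between -1 and 1. In all 54 the range of the IB levels overlapped that of the DU×IB levels. The share that overlapped was not counted over the whole table, so this is not a trait of these genes.

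**Figure D1:**
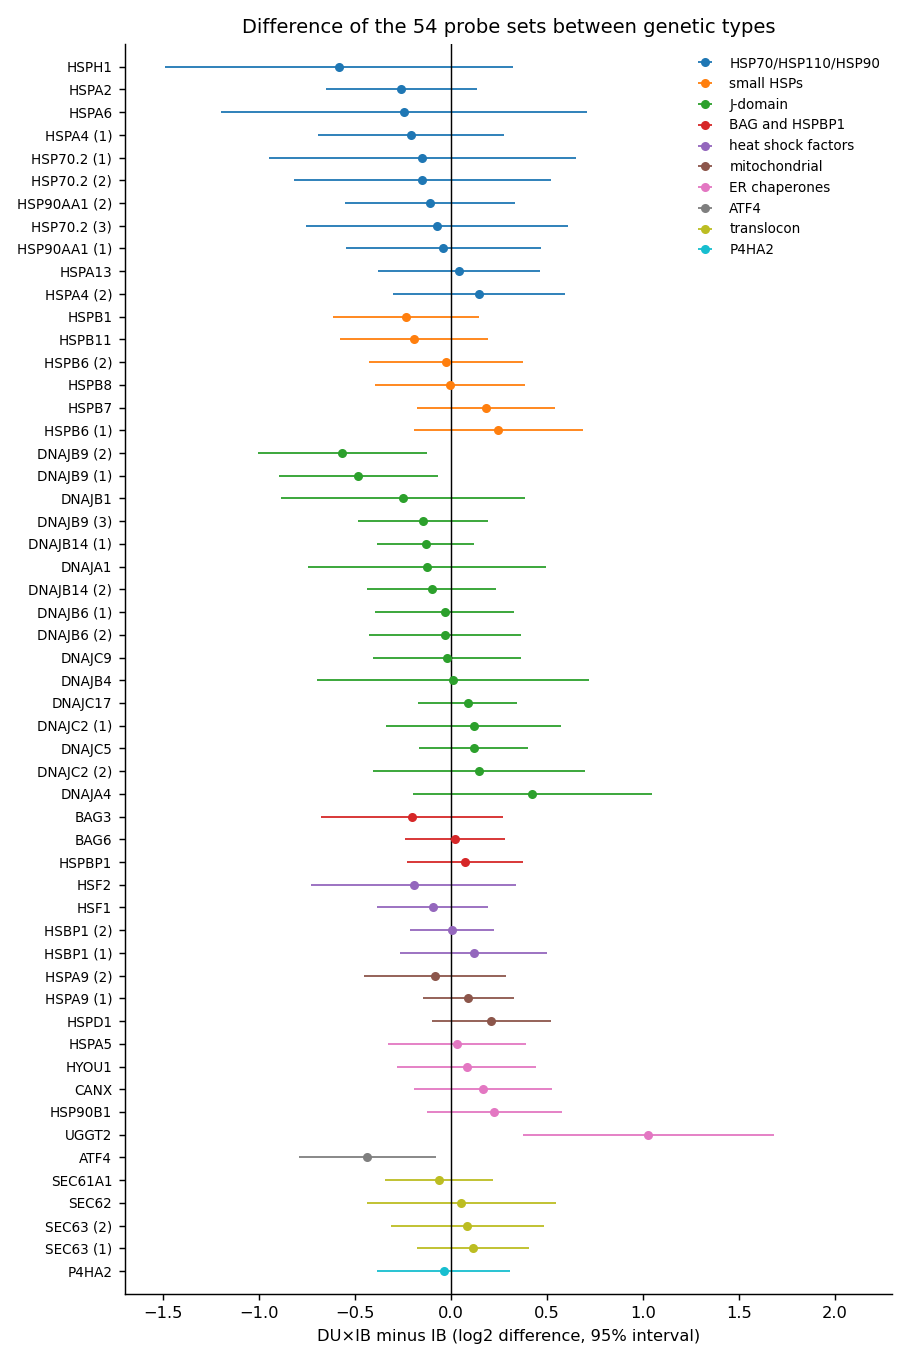
Log2 difference (DU×IB minus IB, x axis) of the 54 probe sets with its 95% interval from limma, grouped and coloured by role, with numbers in brackets where a gene had several probe sets. Most points lie within 0.25 of 0, and UGGT2, at 1.03, stands farthest from it.

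The largest difference was that of UGGT2, a glucosyltransferase of the ER that tags glycoproteins which have not folded so that they are held for another round. Its log2 level in IB ran from 3.01 to 8.28 with a median of 7.19, and in DU×IB from 6.805 to 8.73 with a median of 8.20. The mean was 6.97 ± 1.26 (SD, n = 14) in IB and 8.00 ± 0.62 (SD, n = 14) in DU×IB. Of the DU×IB piglets, 13 of 14 lay above the IB median of their own series, and a single IB piglet (replicate 3) lay far below all others. The difference was 1.03 (SE 0.32), a 2.04-fold higher level in DU×IB, and just missed the threshold with an adjusted p of 0.106 (0.254 without the block). Without IB replicate 3, the IB array of lowest median, the difference was smaller, 0.74, and passed it, with an adjusted p of 0.0398. Within the series it was 1.44 in the series of 16 (where 0.172% of all probe sets passed the test) and 0.47 in the series of 12, and passed it in neither. UGGT2 did pass the test with array median centring (2.33% of all probe sets called), quantile normalization (2.91%), array weights (5.28%) and the first residual principal component as an added term (5.53%), with adjusted p from 0.0266 to 0.0810. The name needs care. The study's table calls this probe set UGGT2, while the array's annotation gives MARCH6, a ubiquitin ligase that marks ER proteins for degradation. Another probe set that both sources call MARCH6 moved the other way, lower in DU×IB by a log2 difference of -0.54 (SE 0.14, adjusted p = 0.0335).

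DNAJB9 is a J-domain partner of HSPA5 in the ER lumen and had 3 probe sets. The log2 level of the probe set with the largest difference, numbered 2 in the plot by role, spanned 7.36 to 9.84 across IB piglets (median 8.40) and 7.18 to 8.78 across DU×IB piglets (median 7.95), so that the ranges overlapped widely. DU×IB lay lower by 0.57 (log2 difference -0.57, SE 0.22, adjusted p = 0.201), with 3 of 14 DU×IB piglets above the IB median of their series. The probe set numbered 1, of the same transcript cluster, gave -0.48 (SE 0.20, adjusted p = 0.270), and the third -0.15 (SE 0.17, adjusted p = 0.774). All 3 means were thus lower in DU×IB, and none passed the test. UGGT2 and DNAJB9 were the members listed as differing in the study's own table, which was drawn up from these same arrays.

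ATF4 is the transcription factor whose translation rises when stress halts general protein synthesis, and it was the brightest of the 54 probe sets. Its log2 level spanned 12.9 to 14.4 across IB piglets (median 13.6) and 12.4 to 13.9 across DU×IB piglets (median 13.2). The difference was -0.44 (SE 0.17, adjusted p = 0.236), and it lay mostly in one series. In the series of 16 the means were 13.5 for IB and 13.5 for DU×IB, a difference of -0.09. In the series of 12 they were 13.6 and 12.7, a difference of -0.90 that passed the test within that series (adjusted p = 0.0914), where 4.38% of all probe sets did. The interaction of genetic type with series had an unadjusted p of 0.0188 for ATF4 and an adjusted p of 0.714.

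**Figure D2:**
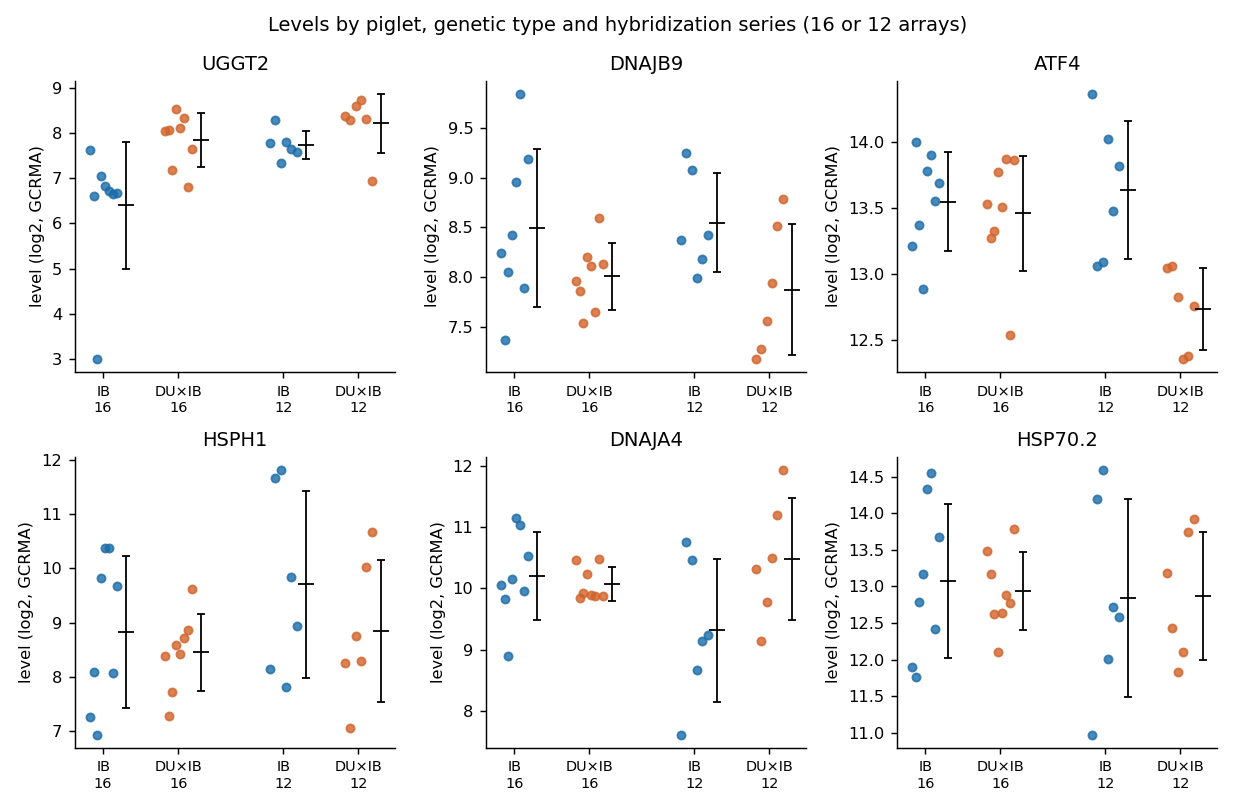
Log2 level (GCRMA, y axis) of 6 probe sets in each piglet, by genetic type and by the hybridization series of 16 or 12 arrays, with the mean and SD of each group as black bars. The mean of UGGT2 is higher in DU×IB by 1.44 and 0.47 in the series of 16 and 12, that of ATF4 differs by -0.09 and -0.90, and the levels of HSPH1, DNAJA4 and HSP70.2 spread over several log2 units within each genetic type.

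Among the HSP70, HSP110 and HSP90 families, 9 of 11 probe sets had a lower mean in DU×IB, with log2 differences from -0.58 to 0.15 and a lowest adjusted p of 0.615. HSPH1, the HSP110 nucleotide exchange factor, had the largest, -0.58 (SE 0.44, adjusted p = 0.629). Its level spanned 6.94 to 11.8 across IB piglets (median 9.31) and 7.06 to 10.7 across DU×IB piglets (median 8.50), so each genetic type held piglets with a low and with a high level. HSP70.2, the stress-inducible HSP70 of the pig, gave -0.15, -0.15 and -0.07 over its 3 probe sets, with SEs from 0.33 to 0.39. The 95% interval of the third, from -0.76 to 0.61, leaves room for a difference of either sign. HSPA6, another inducible HSP70, differed by -0.24 (SE 0.47), and the constitutive, testis-enriched HSPA2 by -0.26 (SE 0.19). HSP90AA1, the inducible cytosolic HSP90, gave -0.04 and -0.11, and HSPA4, a relative of HSP110, -0.21 and 0.15 over 2 probe sets that disagreed in sign.

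The 6 probe sets grouped by their HSPB symbol as small heat shock proteins had differences from -0.24 (HSPB1, also called HSP27) to 0.25 (HSPB6, also called HSP20). The second HSPB6 probe set gave -0.03, and HSPB8, the partner of BAG3 in the removal of damaged filament proteins, gave -0.0039 (SE 0.19). Means of the 16 J-domain probe sets were higher in DU×IB for 6 and lower for 10. DNAJA4 had the largest positive difference, 0.42 (SE 0.31, adjusted p = 0.601). Its level spanned 7.62 to 11.1 across IB piglets (median 10.0) and 9.14 to 11.9 across DU×IB piglets (median 10.1), with a difference of -0.13 for the series of 16 against 1.16 for the series of 12. DNAJB1, the main J-domain partner of HSP70 in the heat shock response, gave -0.25 (SE 0.31), and DNAJB4, the brightest of the J-domain probe sets, 0.0081 (SE 0.35). Both probe sets of DNAJB6 lay at -0.03, those of DNAJB14, a J-domain protein of the ER membrane, at -0.13 and -0.10, and those of DNAJC2, which works at the ribosome, at 0.12 and 0.15. BAG3, which links HSP70 to HSPB8, differed by -0.20 (SE 0.23).

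In the mitochondria, HSPD1 (the chaperonin HSP60) had a difference of 0.21 (SE 0.15) and HSPA9, the HSP70 of the matrix, 0.09 and -0.08 over 2 probe sets, the second of which was dim, with a mean of 3.39. All 5 probe sets grouped as ER chaperones had a higher mean in DU×IB, as had 2746 of all 5226. Besides UGGT2 these were HSP90B1 at 0.23 (SE 0.17), the lectin calnexin (CANX) at 0.17 (SE 0.18), the HSP110 relative HYOU1 at 0.08 (SE 0.18) and HSPA5, also known as BiP, at 0.03 (SE 0.18). DNAJB9, also of the ER lumen but grouped with the J-domain genes, had a lower mean in each of its probe sets. The translocon subunits, which pass new chains into the ER, ranged from -0.06 (SEC61A1) to 0.12 (SEC63), with SEC62 at 0.05. P4HA2, a subunit of the collagen prolyl 4-hydroxylase, gave -0.04 (SE 0.17) at a mean level of 3.84. SEC61A1, P4HA2, DNAJC9 and the second HSPA9 probe set had means under 4 in both genetic types, the lower end of the scale. The heat shock factors also lay close to 0, HSF1 at -0.10 (SE 0.14), HSF2 at -0.19 (SE 0.26) and HSBP1, a small protein that binds HSF1 and dampens it, at 0.12 and 0.0038.

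Wider lists of stress genes were counted in the same fit. Of 12 probe sets of 10 HSF1 target genes, 0 passed the test, with a median difference of -0.12. Of 11 probe sets of 9 targets of the unfolded protein response, 0 passed it, with a median of -0.15. At an unadjusted p under 0.05 there were 4, beside 13.8% of all probe sets. They included a pair of DNAJB9 probe sets with r = 0.957 to each other. Folding and ER quality control genes that the rule did not take included 7 called of 37 probe sets, 3 higher and 4 lower in DU×IB, with a median of -0.09. The higher ones were the prolyl isomerases FKBP10 (0.75), FKBP14 (0.82) and FKBP1A (0.54). The lower ones were the ER oxidase ERO1L (-0.81), MARCH6 (-0.54) and both probe sets of SVIP (-2.34 and -3.53), a small inhibitor of ER-associated degradation. The other probe set of FKBP14 gave -0.16 and that of ERO1L -0.48, and neither passed the test. All 7 are in the study's list of genes that differed on these arrays, so they are no independent evidence of a direction.

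How widely a gene varied between piglets of the same genetic type and series was taken as the SD of the residuals of the fit. The median residual SD was 0.52 over the 54 probe sets and 0.49 over all, but 10 of the 54, or 18.5%, lay in the top 10% of the table. These were HSPA6 with an SD of 1.35, HSPH1 with 1.28, the 3 probe sets of HSP70.2 with 1.12, 0.95 and 0.93, DNAJB4 with 0.99, UGGT2 with 0.91, DNAJB1 with 0.88, DNAJA4 with 0.86 and DNAJA1 with 0.86. All but UGGT2 and DNAJA4 are HSP70 or HSP110 genes that stress induces, or targets of HSF1. The level of HSPA6 ran from 3.25 in IB replicate 9 to 9.53 in IB replicate 6, a 77.7-fold range, and that of HSPH1 covered a 29.3-fold range. The level of the third HSP70.2 probe set spanned 11.0 to 14.6 across IB piglets (median 12.8) and 11.8 to 13.9 across DU×IB piglets (median 12.8). At the other end stood HSBP1, whose brighter probe set had an SD of 0.22 (the lowest 0.632% of all probe sets), HSPA9 with 0.26, DNAJB14 with 0.29 and DNAJC17 with 0.30. The ER chaperones other than UGGT2 had SDs from 0.45 to 0.47. Compared only with probe sets within 1 log2 unit of the same mean, HSPA6 and HSPH1 were still more variable than 98.7% and 98.4%, and the third HSP70.2 probe set more than 87.7%.

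**Figure D3:**
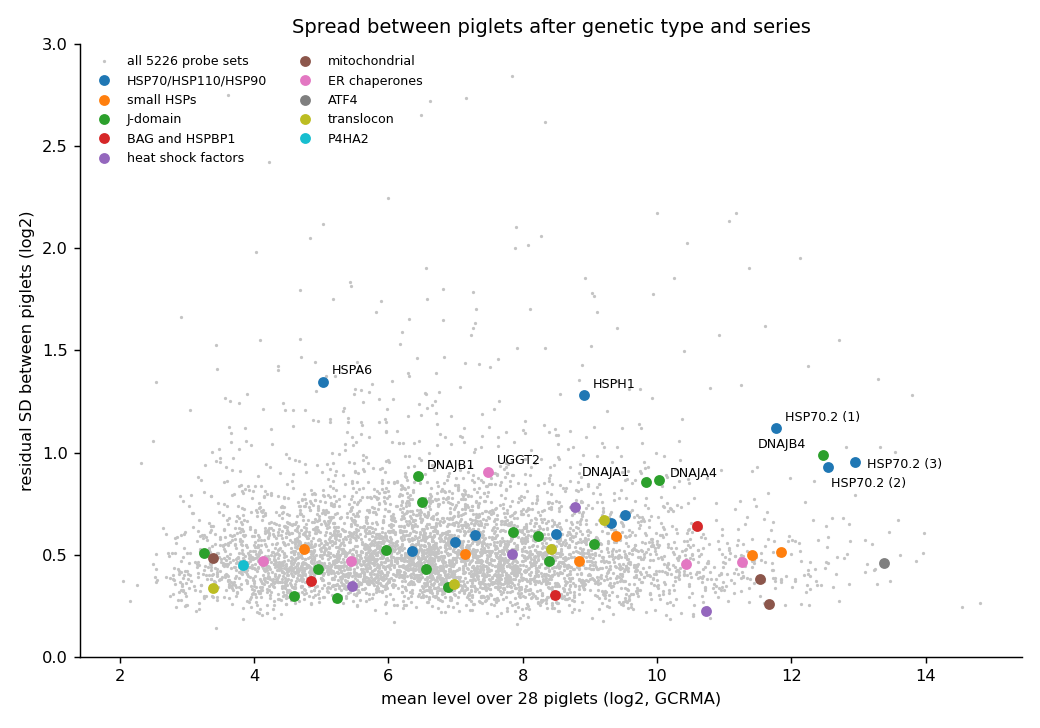
Residual SD between piglets after genetic type and hybridization series (y axis, log2) against the mean level over 28 piglets (x axis, log2) for all 5226 probe sets (grey) and for the 54 chaperone and folding probe sets, coloured by role. HSPA6 (1.35), HSPH1 (1.28), HSP70.2, DNAJB4 and DNAJB1 stand above the bulk, while most ER, mitochondrial and translocon probe sets lie within it.

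The spread was wider in IB than in DU×IB for 46 of the 54 probe sets, or 85.2%, but also for 76.4% of the whole table. The median ratio of the 2 SDs, each taken within series, was 1.37 for the 54 and 1.26 for all. For HSPA6 the SD within series was 1.72 in IB and 0.90 in DU×IB, for the third HSP70.2 probe set 1.18 and 0.70, for DNAJA1 1.10 and 0.58, and for HSPH1 1.54 and 1.00. HSPB7 and HSPB11 went the other way, with 0.36 and 0.38 in IB and 0.55 and 0.62 in DU×IB. These ratios were not tested, and they make no allowance for the fewer litters of DU×IB.

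The variable genes moved together from piglet to piglet. Residuals were correlated for all 36 pairs of the 9 measured HSF1 targets that belong to the 54 probe sets (1 probe set a gene), with p-values from 100000 permutations within genetic type and series, adjusted over 51 pairs in all. Of these 36 pairs, 23 had an adjusted p under 0.10, all with a positive r, and each of the 23 was positive within both series. An r of at least 0.5 was found for 17, or 47.2%, where 9.76% of all pairs of probe sets in the table had one. Gene by gene, the share of all other probe sets at this r ran from 1.74% for DNAJB1 to 27.8% for HSPD1. It was 17.4% for DNAJA1 and 17.9% for DNAJB4. Over the 36 pairs the median r was 0.31 in the series of 16 and 0.67 in the series of 12. The strongest joined HSPH1 and DNAJA1 (r = 0.921, rho = 0.933, p = 1e-05, the smallest the permutations can give, adjusted p = 0.000255). It was 0.888 in the series of 16, 0.960 in the series of 12 and 0.913 without the 2 piglets farthest from the median of HSPH1. DNAJA1 and DNAJB4 had r = 0.842 (rho = 0.858, p = 1e-05, adjusted p = 0.000255), and 0.840 without the 2 extreme piglets. HSPH1 and DNAJB4 had r = 0.781 (rho = 0.806, p = 2e-05, adjusted p = 0.000255; 0.773 without them). BAG3 and its partner HSPB8 had r = 0.674 (rho = 0.726, p = 0.00021, adjusted p = 0.00153), or 0.616 without 2 piglets. The probe set of HSP90AA1 passed the test with HSPH1 (r = 0.511, rho = 0.571, p = 0.00631, adjusted p = 0.0161) and with BAG3 (r = 0.410, rho = 0.471, p = 0.0355, adjusted p = 0.0724), where r was 0.502 and 0.287 without 2 piglets, but reached only -0.00607 with DNAJB1 (rho = 0.0712, p = 0.976, adjusted p = 0.976).

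HSP70.2, HSPA6 and the factors HSF1 and HSF2 were then set against the same 9 genes, among 63 further pairs chosen after the data had been seen. HSP70.2 passed the test with 7 of 9, all positive, with r from 0.548 for HSPB1 to 0.795 for HSPH1 (rho = 0.779, p = 2e-05, adjusted p = 0.00014; 0.757 without 2 piglets). HSPA6 passed it with 7 of 9, and its r with HSPH1 was 0.704 (rho = 0.689, p = 2e-05, adjusted p = 0.00014; 0.701 without 2 piglets). Each factor was tested against the targets, and the difference between the factors was not tested. The HSF2 transcript passed the test with 7 of 9 targets, all positive, and followed DNAJB4 (r = 0.841, rho = 0.892, p = 1e-05, adjusted p = 9e-05) and HSPB8 (r = 0.828, rho = 0.725, p = 1e-05, adjusted p = 9e-05), with 0.813 and 0.778 without 2 piglets. An r of at least 0.5 was found with 77.8% of the targets for HSP70.2, 66.7% for HSPA6 and 77.8% for HSF2. Over all other probe sets these shares were 4.11%, 3.1% and 10.2%. The HSF1 transcript had a positive r with HSP90AA1 (0.438, rho = 0.383, p = 0.0271, adjusted p = 0.0438; 0.335 without 2 piglets). Its r with DNAJB1 was negative (-0.516, rho = -0.481, p = 0.00803, adjusted p = 0.0149; -0.512 without 2 piglets), as with HSPD1 (-0.504, rho = -0.432, p = 0.0122, adjusted p = 0.0220; -0.430). It was weaker with DNAJB4 (-0.455, rho = -0.353, p = 0.0300, adjusted p = 0.0472) and DNAJA1 (-0.364, rho = -0.341, p = 0.0451, adjusted p = 0.0689), where it shrank to -0.272 and -0.283 without 2 piglets. With HSPD1, DNAJB4 and DNAJA1 the negative r lay in the series of 16 (-0.616, -0.541 and -0.518) and was near 0 in the series of 12 (0.00312, -0.0628 and -0.0633). Over the 9 targets the median r of HSF1 was -0.16, beside -0.18 over all other probe sets of the table. A negative r was thus not particular to the targets. HSF1 is mainly switched on as a protein, by release and phosphorylation, which an array of transcripts does not measure.

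Counted over 11 heat shock genes (the 9 targets, HSP70.2 and HSPA6), 6 piglets lay above their fitted level in all or all but 1 gene. All 11 were above it in IB replicates 5 and 10 and in DU×IB replicate 13, and 10 of 11 in IB replicates 4 and 6 and in DU×IB replicate 14. None was above it in IB replicate 12 and 1 was in DU×IB replicate 10. The piglets high for 9 or more genes were 5 IB and 2 DU×IB, and those low for 9 or more were 5 IB and 1 DU×IB. High and low piglets thus occurred in both genetic types and in both series. IB replicate 6 had the highest HSPA6, 4.21 log2 units above its fitted level, and IB replicate 9 the lowest HSP70.2, 1.91 below it (deviation -1.91).

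**Figure D4:**
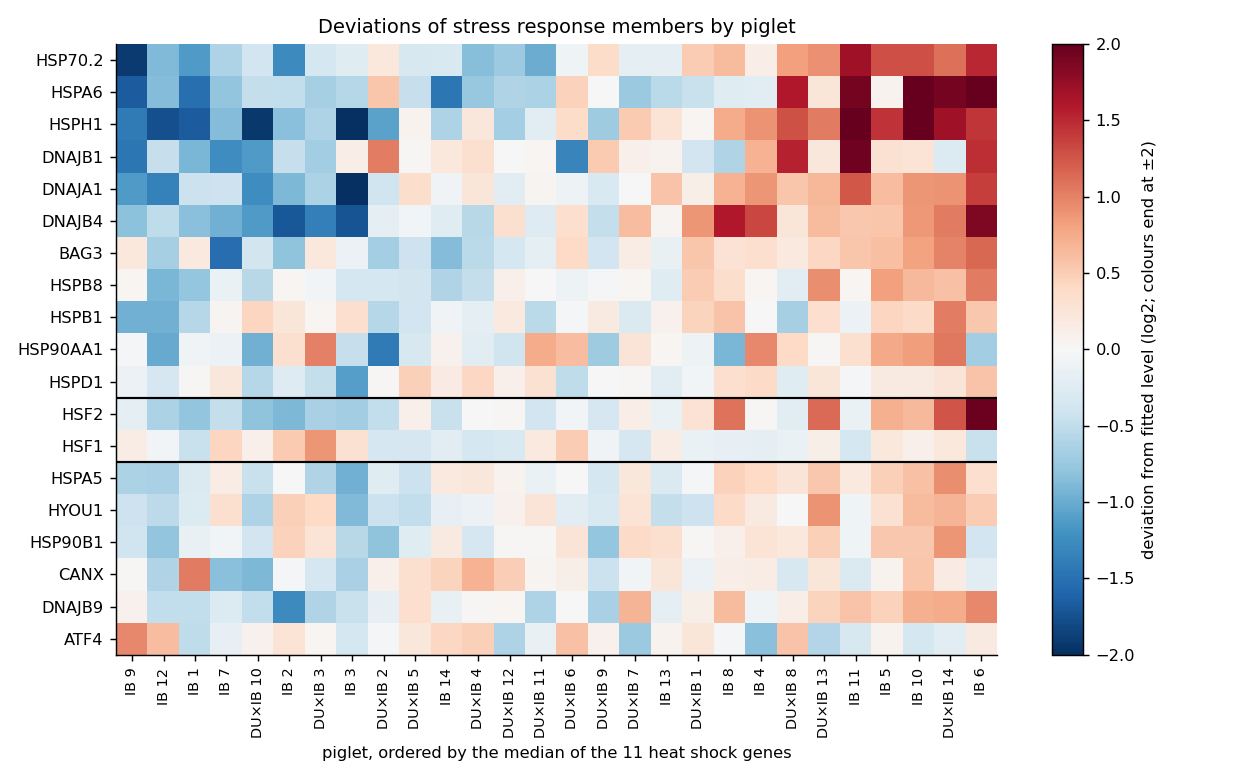
Deviation of each piglet (columns, ordered by the median of the 11 heat shock genes) from the fitted level of its genetic type and series (log2, colour, ending at ±2) for the 11 heat shock genes, the factors HSF2 and HSF1, and 6 members of the unfolded protein response. The upper rows and HSF2 turn from blue to red together from left to right, with IB and DU×IB piglets mixed, while HSF1 and ATF4 do not follow them.

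Immediate early genes, whose transcripts appear within minutes of a stimulus and which also react to handling and sampling, were the most variable list in the table that was looked at, with a median residual SD of 1.27 over 16 probe sets, 12 of them (75%) in the top 10%. HSP70.2 varied over piglets with ATF3 (r = 0.719, rho = 0.711, p = 1e-04, adjusted p = 0.000573; 0.668 without 2 piglets), NR4A3 (r = 0.574, rho = 0.557, p = 0.00374, adjusted p = 0.00736; 0.584) and IER3 (r = 0.508, rho = 0.614, p = 0.00212, adjusted p = 0.00504; 0.550). It did not pass the test with the other 9, among them FOS (r = 0.103, rho = 0.0909, p = 0.664, adjusted p = 0.721) and EGR1 (r = 0.0796, rho = 0.101, p = 0.728, adjusted p = 0.752). None of these 16 probe sets passed the test between genetic types. The part of handling in the spread of the heat shock genes was not tested.

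The ER genes were less variable but also linked. Of 15 pairs among 6 members of the unfolded protein response, 4 passed the test. The same number, or 26.7%, had an r of at least 0.5, beside 9.76% of all pairs and 11.1% of those with HSPA5. Pairs of an ER gene with a heat shock gene were not tested, so a link particular to the ER genes was not shown. HSPA5 was tied to HYOU1 (r = 0.772, rho = 0.776, p = 4e-05, adjusted p = 0.00034; 0.696 without 2 piglets), HSP90B1 (r = 0.680, rho = 0.661, p = 0.00027, adjusted p = 0.00172; 0.584) and DNAJB9 (r = 0.639, rho = 0.708, p = 0.00075, adjusted p = 0.00294; 0.597), and HSP90B1 to HYOU1 (r = 0.688, rho = 0.682, p = 4e-05, adjusted p = 0.00034; 0.640). All 4 were positive in both series. ATF4 had a negative r with all 5 others, from -0.166 with CANX to -0.362 with HYOU1, and none passed the test. Its r lay between -0.0348 and 0.0625 in the series of 16 and between -0.349 and -0.690 in the series of 12. Over the 15 pairs the median r was 0.0408 in the series of 16 and 0.597 in the series of 12.

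Several genes had more than 1 probe set, which shows how far a name fixes a measurement. The 3 probe sets of HSP70.2 had pairwise r from 0.983 to 0.990, those of DNAJC2 0.914, and the first pair of DNAJB9 0.957, with 0.590 and 0.582 for the probe set numbered 3. HSPB6 reached 0.746 and DNAJB6 0.638. The 2 probe sets of HSP90AA1 had r = -0.0974 (rho = -0.154, p = 0.644, adjusted p = 0.711) and those of HSBP1 0.178 (rho = 0.156, p = 0.548, adjusted p = 0.664). Both genes were therefore read from separate probe sets that did not follow each other over both series together. For HSP90AA1 r was -0.329 in the series of 16 and 0.561 in the series of 12, and for HSBP1 0.217 and -0.0262. HSP70 genes are nearly identical in sequence, so a probe set can take signal from more than 1 of them.

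Many members differed between the hybridization series, some of the inducible ones among them. Of the 54 probe sets, 33 (61.1%) differed between series, 20 higher and 13 lower in the series of 12, beside 80% of all probe sets other than the spike-ins (57.5% higher and 22.6% lower). The median shift was 0.29 for the 54 and 0.57 for all. In the HSP70, HSP110 and HSP90 families 3 of 11 differed, and HSP70.2 moved by 0.03, -0.24 and -0.15, with adjusted p from 0.521 to 0.948. Of the 10 member probe sets of HSF1 targets, 4 (40%) differed, 2 higher and 2 lower in the series of 12. Of the 6 probe sets with an HSPB symbol, 5 were lower in the series of 12, HSPB6 by -1.49 and -1.31 and HSPB1 by -1.40. The exception was HSPB11, which moved by 0.27. All 3 mitochondrial probe sets were higher there, by 0.77 to 1.09, as were DNAJC2 (0.70 and 1.53) and the second HSP90AA1 probe set (1.43), while the first moved by 0.08. Each series held different piglets, so an effect of hybridization and a difference between piglets cannot be told apart in these shifts. The genetic types are balanced over the series, and no probe set of the table had an interaction of genetic type and series with an adjusted p under 0.10 (0% of 5226, 6.37% at an unadjusted p under 0.05). Among the 54, 8 had an unadjusted p under 0.05, with the lowest for HSPB6 (p = 0.00574, adjusted p = 0.685) and HSPB1 (p = 0.00919). HSPB1 was lower in DU×IB by -0.64 in the series of 16 and higher by 0.31 in the series of 12. The difference had the same sign in both series for 25 of the 54 (46.3%) and for 55.6% of all probe sets.

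**Figure D5:**
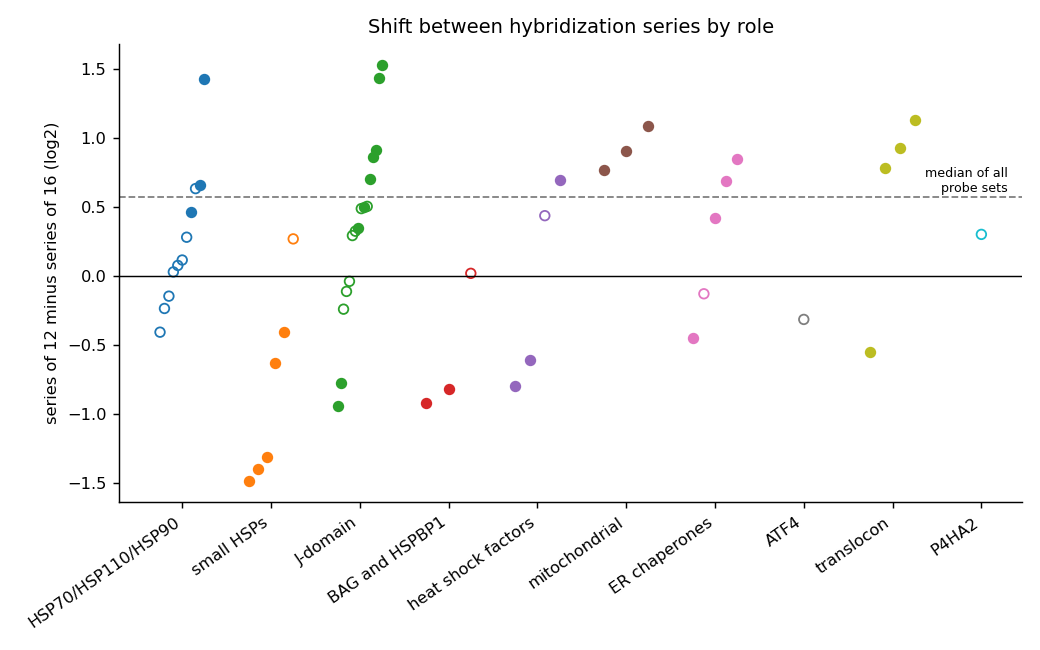
Shift of each of the 54 probe sets between hybridization series (series of 12 minus series of 16, log2, y axis) by role, with filled points for an adjusted p under 0.10, open points for the rest and a dashed line at the median of all 5226 probe sets (0.57). Probe sets grouped by symbol as small heat shock proteins lie below 0 in 5 of 6. Mitochondrial chaperones lie above it in 3 of 3, and most of the HSP70, HSP110 and HSP90 probe sets near it.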

How the data were processed

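Total RNA of loin muscle from 28 piglets was hybridized to the Affymetrix porcine genome array. The authors read the scans with GCOS and normalized them by GCRMA in BRB-ArrayTools, which gave the deposited log2 levels. They kept probe sets that varied (over 20% of values beyond 1.5-fold of the median), and all 5226 deposited probe sets met this filter. All 28 columns were used. Arrays give no read depth, so their number limits precision.

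Members and lists were chosen with earlier results of these data known. Names came from the study's tables (2 members from its list, 4 from its factors) or the array annotation (48), and 1 disagreed. Named genes were the members past the threshold, those in the study's list, the 10 of largest difference, the 6 of largest spread, those with several probe sets, stress factors and the brightest of each role; others describe a role. Differences were fitted with limma 3.58.1 (R 4.3.3, lmFit and eBayes, two-sided, 30.4 moderated degrees of freedom) with genetic type and hybridization series, as in the study's model. The labels do not name the series, which was split at a mean spike-in level of 7.97. Intervals are at 95%. Correlations used scipy 1.17.1 and numpy 2.4.6. The procedures were tested on simulated data. Alternatives were no covariate, median centring, quantile normalization, dim or several-transcript probe sets left out, a replicate block, array weights, another prior, a residual principal component, each series alone and each piglet left out. Lists of chaperonin subunits, disulfide isomerases and cyclophilins had no probe set analysed here.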

Additional observations from a re-analysis of the deposited data

How the results depend on the processing

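The count of members called between genetic types was 0, and stayed 0 in 28 of 41 alternatives. It was 1 (UGGT2) under the replicate block, median centring of arrays and quantile normalization, 3 with array weights (UGGT2 and 2 probe sets of DNAJB9), 2 with a residual principal component added (UGGT2 and DNAJB9) and 2 in the series of 12 alone (ATF4 and DNAJB14). It was 1 (UGGT2) without both piglets labelled 3, an alternative chosen after seeing the data. Leaving out 1 piglet at a time gave from 0 to 1, with UGGT2 called without IB replicates 1, 3, 4 or 10 or DU×IB replicate 14 and DNAJB9 without IB replicate 2. Over the whole table these settings called from 9 probe sets (series of 16 alone) to 289 (residual principal component), with 52 without the covariate, 276 with array weights and 229 in the series of 12, beside 145. The difference of UGGT2 stayed positive throughout, from 0.74 to 1.15 without 1 piglet. In the series of 16 alone the third DNAJB9 probe set turned to 0.14, DNAJA4 to -0.13 and the first HSPB6 probe set to -0.25. Leaving out 1 piglet moved HSPA6 from -0.40 to 0.089, the latter without IB replicate 6. The cause of these changes was not tested. The median difference of the 54 stayed between -0.09 and 0.02, and the counts for series (33), interaction (0) and spread (10) kept within 1.5 times. Pairs called among HSF1 targets ranged from 19 to 26. Those of the unfolded protein response were 4 and became 7 without both piglets labelled 3, with 2 of them negative.

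Replicate numbers did not pair the piglets: same-numbered residuals had r from -0.35 to 0.535, over 0.1 in 2 of 14 pairs. The replicate block gave 145 calls in the table and 1 member (UGGT2, adjusted p = 0.0622).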
